A study of Homo sapiens with 15 samples.

Results

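Accessible regions inside very long genes were examined in ATAC-seq peak lists of RPTEC, human cells of the renal proximal tubule immortalised with hTERT. A region was a merged interval of peaks on chromosomes 1 to 22 of hg38 in which at least 2 of 15 libraries had a peak. It was counted here if its midpoint lay inside a protein-coding gene of 500 kb or more (GENCODE 44) and more than 1 kb from any transcription start. This gave 18815 of 285511 regions, or 6.59%, in 305 of the 309 genes of that length. For comparison, 102836 regions lay in the same way inside protein-coding genes under 500 kb. There were 3 libraries each of unedited cells (WT), of the SETD2 knockout clones KO1 and KO2, and of Rescue1 and Rescue2. The knockout clones carry frameshifts made with CRISPR/Cas9 and a guide in exon 3, and each is 1 clone. The rescue lines are single colonies of knockout cells transduced with a lentiviral vector for full-length, 3×FLAG-tagged SETD2 and selected with blasticidin, so they still carry the edited alleles. All cells were kept under G418 for hTERT. The labels do not call WT a clone, so clonal growth and loss of SETD2 cannot be told apart here. KO below means both knockout clones (6 libraries) and rescue both rescue lines (6 libraries).

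SETD2 trimethylates lysine 36 of histone H3 behind elongating RNA polymerase II, so its mark covers the bodies of transcribed genes. The mark is known to restrain transcription from sites inside gene bodies. Very long genes consist almost wholly of introns, and many of them encode adhesion molecules, receptors and scaffold proteins best known from neurons. Several of them span common fragile sites, which are prone to breakage when replication is slowed.

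Examples of 3 patterns are shown first, as 200 bp of hg38 around the strongest summit. They are among the 3 regions of a pattern with the highest rank of fold enrichment, and all of those printed are intronic. Capitals mark matches, on either strand, to 11 short motifs, among them AP-1 (TGANTCA), TEAD (GGAATG), FOX (TGTTTAC), RUNX (TGTGGTT), SOX (ACAATGG) and the E-box CAGCTG, where N is any base. A match is a run of letters and not a measured binding site. The first region was called in every KO library but never in WT or rescue.

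CCDC178 intron, chr18:33382999-33383198, forward strand: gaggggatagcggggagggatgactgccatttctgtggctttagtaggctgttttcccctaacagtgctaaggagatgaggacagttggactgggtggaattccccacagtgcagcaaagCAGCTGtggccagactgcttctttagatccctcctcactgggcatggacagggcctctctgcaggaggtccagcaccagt

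Its window holds the E-box CAGCTG and no AP-1 match. The following pair was called in every KO and rescue library but never in WT, and both windows hold an AP-1 match.

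SPOCK3 intron, chr4:167100199-167100398, forward strand: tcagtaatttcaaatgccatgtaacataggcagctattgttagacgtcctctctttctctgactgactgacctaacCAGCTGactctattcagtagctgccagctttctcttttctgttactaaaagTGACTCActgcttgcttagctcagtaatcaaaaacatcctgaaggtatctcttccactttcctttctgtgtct

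ERC1 intron, chr12:1282093-1282292, forward strand: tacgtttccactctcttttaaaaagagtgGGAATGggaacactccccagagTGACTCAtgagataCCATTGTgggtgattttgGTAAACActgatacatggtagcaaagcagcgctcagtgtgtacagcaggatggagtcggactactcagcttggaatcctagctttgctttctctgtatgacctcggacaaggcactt

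The last pair was called in every WT library but never in KO or rescue. In the RBFOX1 window a TEAD and a SOX match overlap.

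RBFOX1 intron, chr16:6933080-6933279, forward strand: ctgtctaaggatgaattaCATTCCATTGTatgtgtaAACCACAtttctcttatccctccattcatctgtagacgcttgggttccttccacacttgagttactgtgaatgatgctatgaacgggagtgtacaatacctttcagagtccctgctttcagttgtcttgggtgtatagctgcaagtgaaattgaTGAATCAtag

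DPP6 intron, chr7:154676471-154676670, forward strand: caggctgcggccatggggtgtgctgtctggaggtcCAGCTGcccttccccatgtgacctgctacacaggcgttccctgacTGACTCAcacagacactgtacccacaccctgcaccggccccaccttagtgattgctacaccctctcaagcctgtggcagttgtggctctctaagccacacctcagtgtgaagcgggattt

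Of the long-gene regions, 263 had the first of these patterns, in 115 genes, and they made up 1.4% of the long-gene regions against 0.534% of the regions in shorter genes. The pattern of KO and rescue without WT took in 616 regions (3.27% against 2.03%). WT-only regions numbered 208 (1.11% against 1.06%), and regions of WT and rescue only numbered 52 (0.276% against 0.371%).

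The lists held 191071 to 256644 peaks on chromosomes 1 to 22 and no read counts, so sequencing depth cannot be read from them. A region without a peak is below the calling threshold and not necessarily closed. KO lists were longer than WT lists by 18285 peaks on average (exact two-sided permutation test, p = 0.0476). Of 14 markers of renal tubule epithelium, 11 had a peak within 1 kb of a start in all 15 libraries, among them PAX8, EPCAM, CUBN and SLC34A1. HNF4A had none, and LRP2 had one in all but 1 WT library. Of 7 markers of other cell types, CDH5, SNAP25 and SYT1 had such a peak in all 15 libraries, PTPRC and CD79A in none, CD3E in 5 and PECAM1 in 7. SETD2 itself had a start peak in all 15 libraries, which checks nothing about the edit.

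The 309 long genes held a median of 57 regions each and up to 205 in KAZN, which encodes a desmosome-associated protein, and 4 of them (CNTN4, KHDRBS2, LUZP2 and MDGA2) held none. Per length, LPP and FOXP1, which encode a focal adhesion protein and a forkhead transcription factor, were richest, with 217 and 207 regions per Mb against a median of 76.6. RBFOX1, the longest gene at 2474 kb, had 19.4 per Mb. Of the long-gene regions 27.8% had a peak in all 15 libraries, compared with 33.9% of the regions in shorter genes and 35.8% of all regions.

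To assess what loss of SETD2 was accompanied by inside long genes, the share of long-gene regions with a peak was compared between WT and KO. The share was 54.9%, 50.8% and 51.4% in the WT libraries. In the KO libraries it ran from 58.7% to 72.4% with a median of 62.6%, so that no KO library overlapped WT. The mean rose from 52.4% ± 2.2 (SD, n = 3) to 63.6% ± 4.63 (SD, n = 6), a difference of 11.3 percentage points (exact two-sided permutation test, p = 0.0238, the smallest this design allows). With the 150000 peaks of highest −log10 q kept in every library the difference was 6.58 points (exact permutation p = 0.0238). The filter on regions draws on more KO and rescue than WT libraries, so a region can enter it without WT peaks more easily than without KO peaks. This holds in long and shorter genes but need not weigh alike, since 27.8% and 33.9% of their regions had a peak in all 15 libraries. The part of the filter in the differences between long and shorter genes was not tested. In regions of shorter genes the share was 59.7% ± 2.61 in WT and 64.3% ± 5.13 in KO, and the groups overlapped (exact permutation p = 0.119).

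Long-gene regions trailed those of shorter genes in WT and lay close to them in KO. The gap, long-gene share minus shorter-gene share in the same library, was -7.84, -7.14 and -7.09 percentage points in WT. It was -0.0917, 0.784 and -0.313 in KO1 and -1.64, -1.48 and -1.23 in KO2. The gap in KO exceeded that in WT by 6.70 points (exact permutation p = 0.0238, the smallest possible). Each clone alone showed it, 7.48 points in KO1 and 5.91 in KO2, where 3 libraries against 3 cannot give a p below 0.1. With 150000 peaks in every library it was 6.99 points. Long-gene regions had a lower GC content than those of shorter genes (45.3% against 47.7%), and with the latter weighted to the same GC the difference was 6.13 points.

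**Figure D1:**
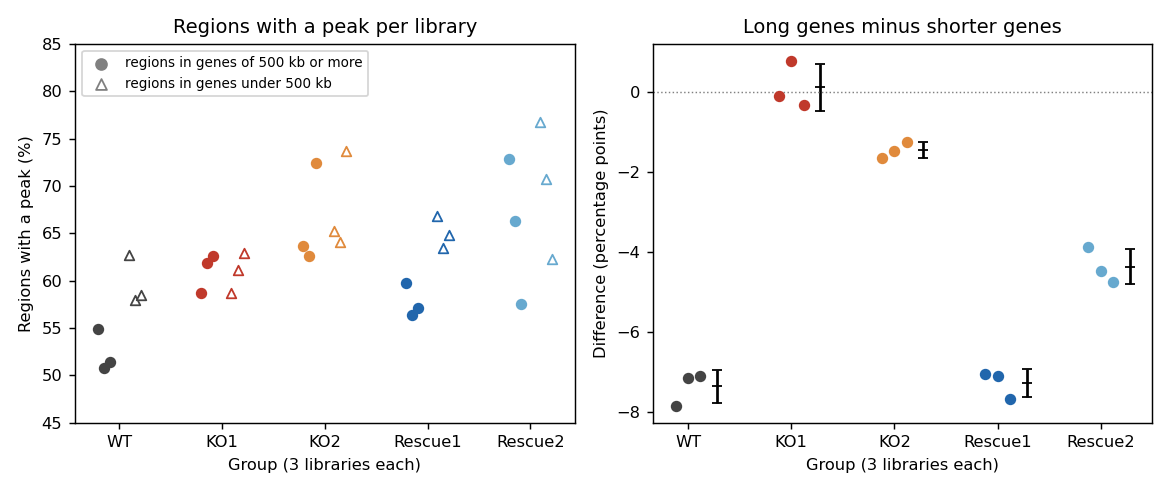
Left, percent of regions with a peak in each of 15 libraries, for regions in genes of 500 kb or more (filled circles) and in shorter genes (open triangles), on an axis that starts at 45%. Right, the difference between both in percentage points, with the mean and SD of each group of 3: WT and Rescue1 lie near -7, KO1 near 0, KO2 near -1.45 and Rescue2 near -4.37.

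Rescue libraries were compared with KO libraries to ask how re-expression of SETD2 related to the same regions. The share of long-gene regions with a peak was 61.7% ± 6.59 (SD, n = 6) in rescue, from 56.4% to 72.9%, and overlapped KO (-1.99 points, exact permutation p = 0.532). Relative to shorter genes, however, the long-gene regions stood lower again. The gap was -7.05, -7.10 and -7.69 points in Rescue1 and -3.88, -4.47 and -4.75 in Rescue2, and no rescue library overlapped KO (rescue minus KO, -5.16, exact permutation p = 0.00216, the smallest possible). This test exchanges libraries and ignores that they are nested in KO1, KO2, Rescue1 and Rescue2, so its p describes these lines only. Against KO2 alone, whose name the deposited lists give to both rescue lines, the difference was -4.37 points (p = 0.0238, exact permutation test). The gap of rescue exceeded that of WT by 1.53 points (exact permutation p = 0.143). Rescue1 differed from WT by 0.0778 points (exact permutation p = 0.6) and Rescue2 by 2.99 (exact permutation p = 0.1, the smallest possible). Against the regions between genes or near starts, in place of those in shorter genes, the gap of rescue exceeded that of WT by 3.0 points with no overlap (exact permutation p = 0.0238), and that of Rescue1 by 2.2 (exact permutation p = 0.1).

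Of 9 length classes, the longest genes showed the largest KO minus WT difference. In genes of 1000 kb or more, 46.1% ± 1.79 of the regions had a peak in WT, 63.6% ± 4.57 in KO and 56.0% ± 6.63 in rescue, a KO minus WT difference of 17.5 points (exact permutation p = 0.0238, the smallest possible). In genes of 500 to 750 kb the corresponding shares were 54.1%, 63.3% and 63.4%. In genes of 100 to 200 kb they were 60.3%, 64.3% and 67.9%. KO levels were thus nearly the same over all length classes, between 63.3% and 64.8%, while WT levels were lower in the longer classes. The share of regions gained in KO went from 4.12% in genes of 100 to 200 kb to 10.1% in genes of 1000 kb or more, whereas the share lost stayed between 2.22% and 2.94% in all 9 classes. Mean GC content was 50.9% in genes under 50 kb and 44.4% in the longest class, and its part in the trend over lengths was not tested.

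**Figure D2:**
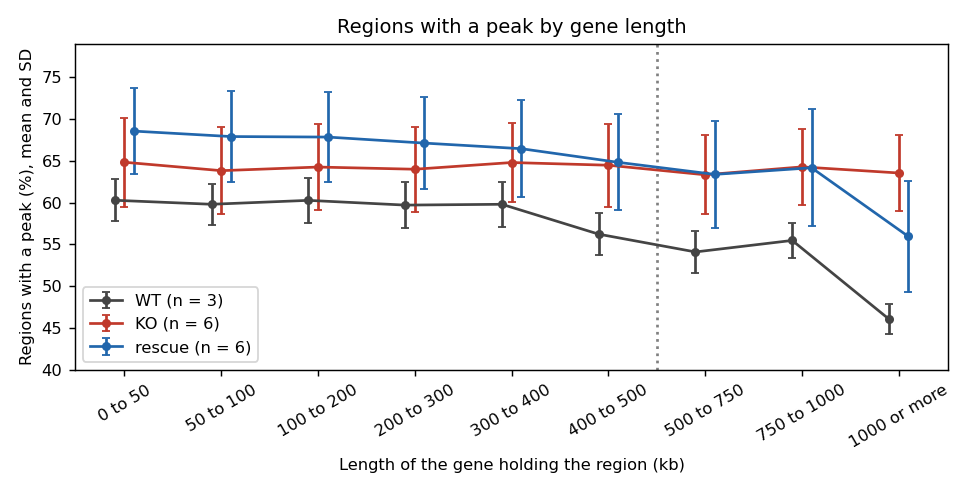
Percent of regions with a peak by length of the gene in kb, mean and SD over WT (n = 3), KO (n = 6) and rescue (n = 6) libraries, with the 500 kb limit dotted and the axis starting at 40%. The KO line is flat near 64%, the WT line drops to 46.1% and the rescue line to 56.0% in genes of 1000 kb or more.

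Gained regions had a peak in each library of the first group and in none of the second, and lost regions the reverse. From WT to KO, 1380 long-gene regions were gained, 7.33% of them against 4.77% of all regions, and 454 were lost, 2.41% against 2.49% of all regions. The gained share was above that in shorter genes (4.24%), and the lost share was near the background. By Fisher's exact test for each region, none passed 0.05 after Benjamini-Hochberg adjustment over all regions (smallest adjusted p = 0.164). At an unadjusted p under 0.05, 1923 long-gene regions were higher in KO (10.2% against 6.93% of all regions) and 712 lower (3.78% against 3.86%). Gained regions were spread over 258 genes, of which 44 had 10 or more. The first 6 genes held 157 of them.

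DLG2, LRP1B and TENM3 gained the most regions, followed by MAGI2, CNTN5 and EYS. DLG2, which encodes a scaffold protein of the postsynaptic density, gained 31 of 132 regions, LRP1B, an endocytic receptor of the LDL receptor family, 30 of 85, and TENM3, a teneurin adhesion molecule, 28 of 75. MAGI2, a junction and slit diaphragm scaffold, gained 25 of 107, CNTN5, a contactin, 22 of 50, and EYS, an extracellular protein of photoreceptors, 21 of 71. None of these 6 lost a region except MAGI2, which lost 1. DLG2 stayed first with 150000 peaks per library (26) and with 0.5 of the region under peaks (32), but the order of the others changed. With 150000 peaks TENM3 counted 21, LRP1B 19, EYS 18, CNTN5 17 and MAGI2 12, and with 0.5 of the region under peaks TENM3 and MAGI2 counted 17 each and LRP1B 15. Levels within genes were compared by the log2 odds that a region of the gene had a peak, centred on the median gene of each library and tested with limma over 3725 genes. These genes were named for their calls in the same lists, so their differences describe the calls and do not test them again.

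In DLG2, 31.1%, 31.1% and 36.4% of the regions had a peak in WT, 74.2%, 75.0% and 78.8% in KO1, and 78.0%, 76.5% and 90.2% in KO2. Every KO library was above every WT library (2.68 ± 0.22 log2 odds, SE, limma adjusted p = 7.8e-08). In LRP1B the WT libraries had 14.1%, 12.9% and 11.8%, and the KO libraries lay between 58.8% and 80.0% (3.56 ± 0.20, limma adjusted p = 1.4e-09). The WT peaks of LRP1B lay in the 3′ part of the gene, as the map of 4 genes shows. In TENM3 the WT libraries had 10.7%, 9.3% and 9.3% and the KO libraries 58.7% to 76.0% (3.74 ± 0.20, limma adjusted p = 5.5e-10). CNTN5 was almost without peaks in WT, with 2.0%, 0.0% and 2.0% of its regions, against 74.0%, 78.0% and 74.0% in KO1 and 58.0%, 60.0% and 66.0% in KO2. Most regions of LRP1B, TENM3 and CNTN5 had no WT peak and could be included only through KO or rescue libraries. The differences of these 3 genes from WT describe that inclusion and are no test.

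Lost regions were fewer and lay in 170 genes. DPP6, which encodes an auxiliary subunit of A-type potassium channels, lost 16 of 43 regions, and RBFOX1, a splicing regulator, lost 14 of 48. TRAPPC9, a subunit of a vesicle tethering complex, lost 12 of 85. NAV2, a cytoskeleton-associated protein, lost 9 of 138 and NCKAP5 7 of 103. In DPP6 the WT libraries had a peak in 74.4%, 72.1% and 69.8% of the regions, KO1 in 11.6%, 9.3% and 14.0%, and KO2 in 23.3%, 20.9% and 18.6% (-3.97 ± 0.28, limma adjusted p = 1.6e-08). Most regions of DPP6 had no KO peak and could be included only through WT or rescue libraries. Its difference from WT describes that inclusion and is no test. RBFOX1 had 50.0%, 52.1% and 39.6% in WT and 16.7% in each KO1 library, and KO2 at 43.8%, 33.3% and 45.8% overlapped WT. RBFOX1 was lower in KO over both clones (-1.51 ± 0.32, limma adjusted p = 0.0015), but with KO2 alone the value was -0.85 (limma adjusted p = 0.094). NCKAP5, at 65.0% ± 2.91 in WT and 62.0% ± 4.57 in KO, passed narrowly (-0.47 ± 0.16, limma adjusted p = 0.03), and leaving out any 1 of the WT libraries, KO1 replicate 3 or KO2 replicate 2 took it past 0.05. With KO1 alone it was -0.39 (limma adjusted p = 0.13), without centring -0.19 (limma adjusted p = 0.66), and with 150000 peaks NCKAP5 lost 3 regions.

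**Figure D3:**
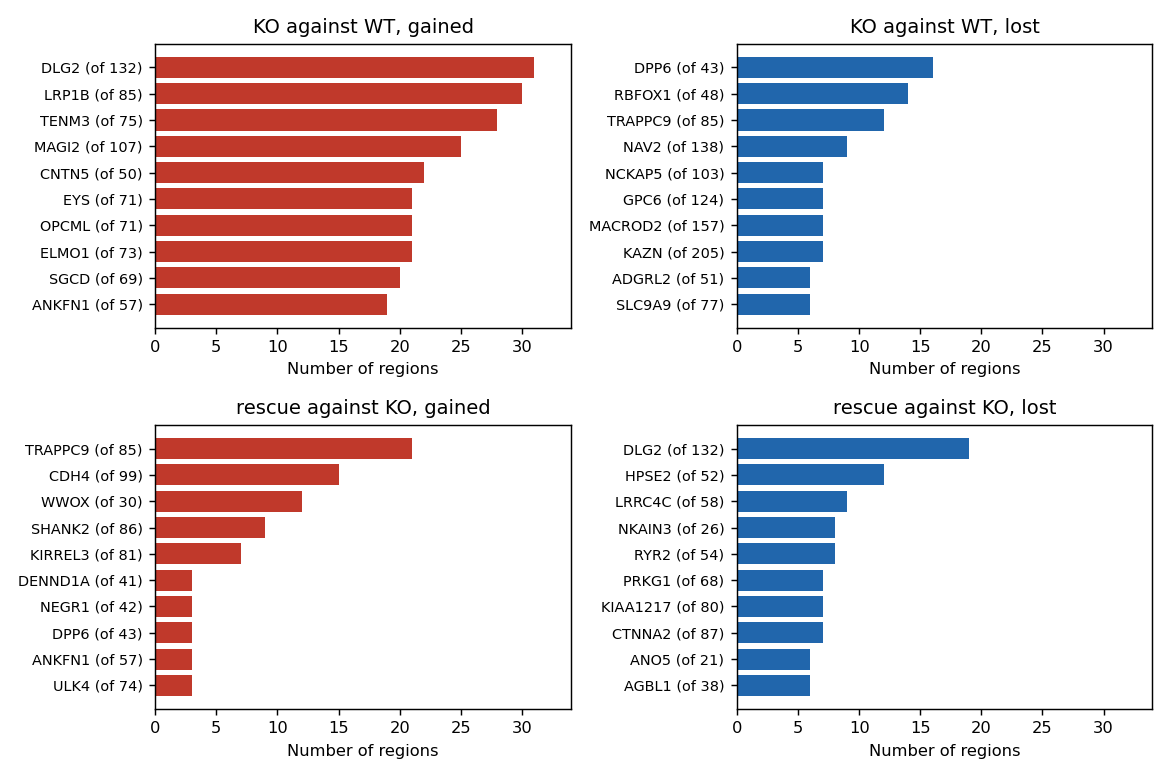
Long genes with many regions gained or lost, 10 to a panel, KO against WT (top) and rescue against KO (bottom), as numbers of regions, with the number of regions in the gene in brackets. DLG2 leads the regions gained in KO (31) and those lost in rescue (19), DPP6 those lost in KO (16) and TRAPPC9 those gained in rescue (21).

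From KO to rescue, 365 long-gene regions were lost, 1.94% against 1.23% of all regions, and 182 were gained, 0.967% against 0.906%. In shorter genes 0.913% of the regions were lost. No region passed Fisher's exact test after adjustment (smallest adjusted p = 0.101), and at an unadjusted p under 0.05, 743 long-gene regions were lower in rescue (3.95% against 2.78% of all regions) and 442 higher (2.35% against 2.49%). Here too Fisher's test had a lower limit, an unadjusted p of 0.00216, which left little room for a pass. Both comparisons share the KO libraries, so their calls are given side by side and their overlap was not tested.

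DLG2 lost 19 of its 132 regions in rescue. HPSE2, a heparanase homologue that binds heparan sulfate, lost 12 of 52, LRRC4C, a netrin-G ligand, 9 of 58, NKAIN3 8 of 26, RYR2, the cardiac calcium release channel, 8 of 54, and PRKG1, a cGMP-dependent kinase, 7 of 68. With 150000 peaks per library these counts fell to 7 in HPSE2, 2 in LRRC4C, 3 in NKAIN3, 5 in RYR2 and 4 in PRKG1. DLG2 had a peak in 45.5%, 37.9% and 40.2% of its regions in Rescue1 and in 54.5%, 47.0% and 40.9% in Rescue2, below every KO library and above every WT library (rescue against KO, -2.43 ± 0.18, limma adjusted p = 2.9e-08). HPSE2 stood at 25.6% ± 2.94 in WT, 75.0% ± 6.44 in KO and 31.4% ± 6.28 in rescue. RYR2 stood at 36.4% ± 2.83 in WT, 71.0% ± 8.09 in KO and 35.2% ± 4.97 in rescue. PRKG1, at 41.7%, 78.7% and 49.0%, and LRRC4C, at 34.5%, 64.4% and 40.2% in WT, KO and rescue, were likewise highest in KO. NKAIN3 was at 19.2% in each WT library, at 61.5% to 88.5% in KO and at 11.5% to 15.4% in rescue (-4.34 ± 0.20, limma adjusted p = 4.9e-10). With few peaks in WT and rescue, regions of NKAIN3 entered the filter mainly through KO libraries. Its difference in rescue describes that inclusion and is no test.

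The other 5 genes with the most regions gained in KO were above WT in every rescue library, and 3 of them were below KO by limma. In TENM3 the rescue libraries had 69.3% to 80.0%, within or above the KO range (0.39 ± 0.16, limma adjusted p = 0.066), and none of its regions was lost. With Rescue1 alone (0.60, limma adjusted p = 0.03), among genes of 30 or more regions (0.41, limma adjusted p = 0.015) and without Rescue1 replicate 3 or Rescue2 replicate 2 it was higher in rescue. LRP1B was at 60.8% ± 7.97 in rescue, with an overlap of the groups and a lower mean of the log2 odds (-0.67 ± 0.17, limma adjusted p = 0.0045). Without centring (-0.50, adjusted p = 0.16) and with Rescue2 alone (-0.47, adjusted p = 0.09) that difference did not pass limma's test. MAGI2 was at 62.8% ± 7.32 and did not pass (-0.39 ± 0.16, limma adjusted p = 0.057), but was lower with Rescue1 alone (-0.55, limma adjusted p = 0.036), among genes of 30 or more regions (-0.37, limma adjusted p = 0.025) and without KO2 replicate 1. CNTN5 was at 66.7% ± 7.02 in Rescue1 and 43.3% ± 8.08 in Rescue2 and was lower in rescue than in KO (-0.98 ± 0.25, limma adjusted p = 0.0055). That call was lost against KO2 alone (-0.32, limma adjusted p = 0.46), with Rescue1 alone (-0.11, limma adjusted p = 0.82) and without centring (-0.81, limma adjusted p = 0.052). EYS, at 13.1% ± 0.813 in WT, 65.7% ± 6.21 in KO and 54.5% ± 10.3 in rescue, was lower too (-0.84 ± 0.16, limma adjusted p = 0.00053), though not against KO2 alone (-0.40, limma adjusted p = 0.13).

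TRAPPC9 gained the most regions in rescue, 21 of 85. CDH4, which encodes R-cadherin, followed with 15 of 99 (6 with 150000 peaks), then WWOX, an oxidoreductase with WW domains at a common fragile site, with 12 of 30 (7 with 0.5 of the region under peaks), SHANK2, a postsynaptic scaffold, with 9 of 86 (5 with 150000 peaks) and KIRREL3, an immunoglobulin adhesion molecule, with 7 of 81. TRAPPC9 had a peak in 52.9%, 49.4% and 50.6% of its regions in WT, in 22.4% to 35.3% in KO and in 67.1% to 89.4% in rescue, so that rescue was above both other groups (2.92 ± 0.16 against KO, limma adjusted p = 2.6e-09). CDH4 stood at 54.5% in WT, 38.7% in KO and 74.2% in rescue, and KIRREL3 at 68.7%, 57.2% and 78.2%. WWOX had few peaks in WT (16.7%, 13.3% and 13.3%) and fewer in KO (0.0% to 6.7%), but 60.0% to 96.7% in rescue (6.18 ± 0.35, limma adjusted p = 2.6e-09). With so few peaks in WT and KO, regions of WWOX entered the filter mainly through rescue libraries. Its difference from KO describes that inclusion and is no test.

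Because KO libraries enter both comparisons, regions were also defined on KO1 and WT alone and read in KO2 and rescue libraries. KO1 gained 2048 long-gene regions over WT, 10.9% against 7.03% of all regions. These had a peak in 76.0%, 74.5% and 82.8% of cases in KO2, in 47.8%, 45.6% and 46.7% in Rescue1, and in 60.4%, 53.5% and 47.2% in Rescue2. No rescue library overlapped KO2 (-27.6 points, exact permutation p = 0.0238, the smallest possible). For regions of shorter genes gained in KO1 the difference was -23.6 points. KO1 lost 879 long-gene regions (4.67% against 4.8% of all regions), of which 31.4% ± 6.29 had a peak in KO2 and 44.2% ± 9.77 in rescue. That difference of 12.8 points did not pass (exact permutation p = 0.0714), with Rescue2 at 51.3% and Rescue1 at 37.1%. In 3 of the alternative settings it did pass, the fixed list length among them (14.2 points, exact permutation p = 0.0238). For regions of shorter genes lost in KO1 the difference was 20.1 points (exact permutation p = 0.0238, the smallest possible).

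Of the 1380 regions gained in KO, 616 (44.6%) had a peak in all 6 rescue libraries and 263 (19.1%) in none, compared with 47.8% and 12.6% of those in shorter genes. Of the 454 lost regions, 52 (11.5%) had a peak in all rescue libraries and 208 (45.8%) in none, compared with 13.9% and 39.7% of those in shorter genes.

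The gene-level comparison took in the 291 long genes with at least 10 regions. In KO, 112 of them (38.5%) were higher and 32 (11.0%) lower, while 19.2% of all 3725 genes were higher and 18% lower. The median difference was 0.31 log2 odds over the long genes and -0.03 over the shorter ones. In rescue against KO, 46 long genes (15.8%) were higher and 123 (42.3%) lower, compared with 20.3% and 20.3% of all genes, with medians of -0.22 and 0.04. Without centring, the counts were 111 higher and 10 lower in KO, and 41 higher and 72 lower in rescue. The other genes move without centring as well, so the shares of all genes above do not apply to these counts. The error is the spread between libraries of the same line, so these counts describe the lines and not SETD2 knockouts in general.

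CNTN5, LRRTM4, CALN1 and SNTG1 differed most upward in KO, by 6.41 ± 0.31, 6.38 ± 0.32, 6.35 ± 0.47 and 6.32 ± 0.24 log2 odds. LRRTM4, a synaptic leucine-rich repeat protein, CALN1, a neuronal calcium-binding protein, and SNTG1, a syntrophin, had no peak in any WT library, so these values depend on the count of 0.5 added to both terms. Each of their regions could be included only through KO or rescue libraries, so their differences from WT describe that inclusion and are no test. This held for nearly all regions of CNTN5 too. The KO shares of LRRTM4, CALN1 and SNTG1 were 66.0% ± 8.22, 79.5% ± 10.5 and 59.9% ± 11.1. Rescue1 and Rescue2 differed in these 3 genes (limma adjusted p of at most 0.0051), with LRRTM4 at 19.2% and 57.7%, CALN1 at 2.56% and 48.7%, and SNTG1 at 34.4% and 72.9%. NELL1, DPP6, WWOX and ADARB2 differed most downward. NELL1, which encodes a secreted growth factor-like protein, had 87.5% of its 16 regions with a peak in each WT library, 0.0% in each KO1 library and 50.0% to 56.2% in KO2 (-5.23 ± 0.29). ADARB2, a relative of the RNA-editing adenosine deaminases, was at 66.7% in each WT library and at 36.7% ± 13.8 in KO.

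In rescue against KO the largest upward differences were in WWOX, SYN3, TRAPPC9 and SHANK2, and the largest downward ones in GALNT13, ROBO2, CSMD3 and NKAIN3. SHANK2 was at 43.0% ± 7.54 in KO and 76.9% ± 10.3 in rescue (2.13 ± 0.20, limma adjusted p = 5.8e-07). GALNT13, an enzyme of O-glycosylation, had no peak in any rescue library, 78.9% to 94.7% of its 19 regions in KO1 and 31.6% in each KO2 library. Each region of GALNT13 could be included only through WT or KO libraries, so its difference in rescue describes that inclusion and is no test. ROBO2, a SLIT receptor known from axon guidance and ureteric budding, had 84.3%, 96.1% and 88.2% in KO1, 5.9%, 3.9% and 5.9% in KO2, and at most 2.0% in rescue. The rescue against KO value of ROBO2 (-6.18 ± 0.47) averages clones that differed by 7.52 ± 0.66 (limma adjusted p = 1.4e-06), and its KO against WT value turned from 1.36 over both clones to -2.40 with KO2 alone. CSMD3 behaved likewise, at 91.2% in KO1 and 5.26% in KO2, and its KO against WT value of 3.07 turned to -0.48 with KO2 alone, where its rescue against KO value went from -4.40 to -0.85 and no longer passed (limma adjusted p = 0.22). With few peaks in KO2 and rescue, regions of ROBO2 and CSMD3 entered the filter mainly through KO1 libraries. Their differences between clones and in rescue describe that inclusion and are no test.

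**Figure D4:**
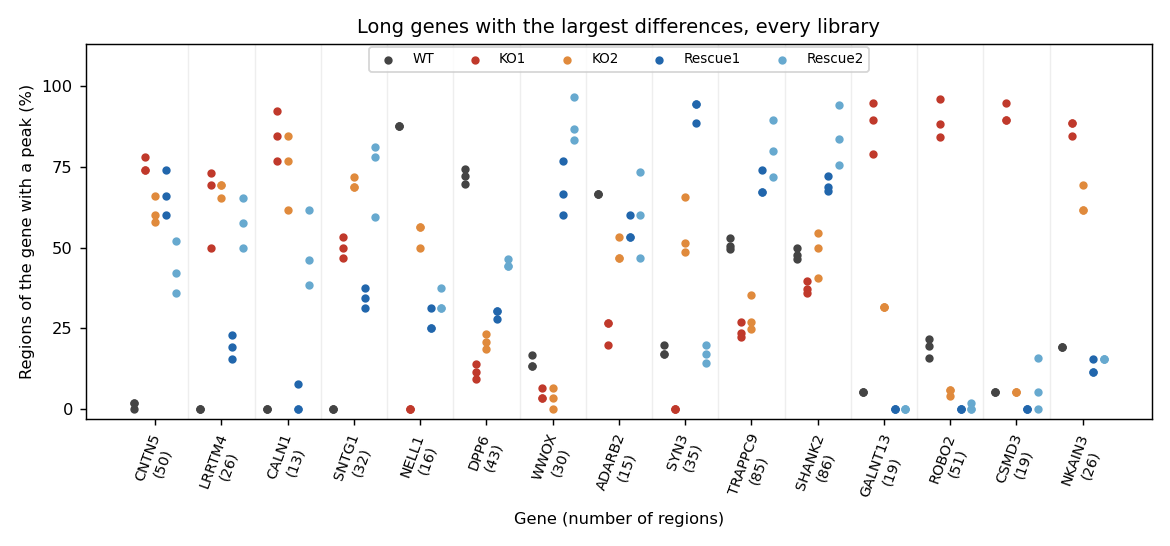
Percent of the regions of a gene with a peak in each of 15 libraries, for the long genes with the largest gene-level differences, with the number of regions in brackets. LRRTM4, CALN1 and SNTG1 lie at 0 in WT, DPP6 and NELL1 are highest in WT, WWOX is highest in rescue, and SYN3, ROBO2 and CSMD3 differ between clones of the same genotype.

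Long genes were also grouped by function, with some genes in more than 1 list. Of 37 genes for adhesion and synapse organisation, 30 had enough regions for the fit, and 17 were higher and 6 lower in KO. Their median difference was 0.92, against 0.31 over all long genes and -0.01 over all genes tested, and 10.1% of their regions were gained. The share of their regions with a peak was 45.3% ± 2.12 in WT, 62.2% ± 4.62 in KO and 58.1% ± 7.12 in rescue. Of 11 fitted axon guidance genes, the group of ROBO1 and ROBO2, 6 were higher and 0 lower in KO, and 7 were lower and 1 higher in rescue (medians 1.36 and -1.26). Their regions had a peak in 38%, 62.3% and 50.4% of cases in WT, KO and rescue. The KO median of 1.36 is the value of ROBO2, which turned to -2.40 with KO2 alone. ROBO1 was also far higher in KO1 than in KO2, so the values of this group rest in part on KO1.

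Among 13 genes for extracellular matrix and proteoglycans, such as HPSE2 and SPOCK3, 8 were higher and 1 lower in KO (median 0.99). Among 17 fitted ion channel and neurotransmitter receptor genes, with RYR2 and DPP6, 9 were higher and 2 lower (median 0.80). Over all long genes 38.5% were higher and 11.0% lower, and the following groups are read against that. Cytoskeleton and polarity genes counted 9 higher and 3 lower of 17, signalling enzymes such as PRKG1 8 higher and 0 lower of 21, and transcription and RNA-binding factors 7 higher and 2 lower of 23. Of 20 genes at common fragile sites, with WWOX, LRP1B and DLG2, 9 were higher and 3 lower in KO, 11.4% of their regions were gained, and in rescue 10 were lower and 2 higher. Of the receptor-type tyrosine phosphatases 2 of 5 fitted genes were higher and 0 lower, with a median of -0.19 and 1.82% of their regions gained (7.33% over all long genes).

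Each clone was also compared with WT. Gained long-gene regions numbered 2048 in KO1, 2231 in KO2 (11.9% against 8.29% of all regions), 1663 in Rescue1 (8.84% against 6.65%) and 1984 in Rescue2 (10.5% against 7.74%). Lost ones numbered 879 in KO1, 589 in KO2 (3.13% against 3.23%), 908 in Rescue1 (4.83% against 4.32%) and 538 in Rescue2 (2.86% against 2.61%). KO1 gained most in ROBO1 (42 of 67), DLG2 (39) and LRP1B (33), and KO2 in DLG2 (43), LRP1B (37) and TENM3 (35). Rescue1 gained most in TENM3 (41), PTPRD (29 of 59) and LRP1B (28), and Rescue2 in TENM3 (39), LRP1B (35) and MAGI2 (33). Losses were led by DPP6 (21) and MACROD2 (17 of 157) in KO1 and by DPP6 (16), RBFOX1 (14) and TRAPPC9 (13) in KO2. In both rescue lines they were led by CTNNA2, an alpha-catenin, with 25 of 87 regions in each. MACROD2, an ADP-ribose hydrolase, followed with 22 in Rescue1 and 17 in Rescue2, before RBFOX1 (17) in Rescue1 and DPP6 (15) in Rescue2.

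Clones of the same genotype differed in whole genes. Between the knockout clones, 314 long-gene regions were present in KO1 and not KO2 (1.67% against 1.02% of all regions) and 564 the other way (3.0% against 2.52%). At the gene level 16 of 291 long genes were higher and 12 lower in KO1 (5.5% and 4.12%, against 1.5% and 2.66% of all genes). PTPRD, a receptor-type tyrosine phosphatase, had a peak in 1.7%, 1.7% and 3.4% of its regions in KO1 and in 66.1%, 59.3% and 78.0% in KO2 (-5.72 ± 0.35, limma adjusted p = 3.3e-08). In the rescue lines it was at 66.7% in Rescue1 and 40.7% in Rescue2, and in WT at 9.04% ± 1.96. Regions of PTPRD thus entered the filter mainly through KO2 and rescue libraries. Its difference between the knockout clones describes that inclusion and is no test. ROBO1, the other SLIT receptor, was the reverse, at 88.1% in KO1, 31.3% in KO2 and 4.98% ± 0.862 in WT.

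SYN3, a synapsin, had no peak in any KO1 library, 48.6% to 65.7% in KO2, 88.6% to 94.3% in Rescue1 and 14.3% to 20.0% in Rescue2. Its KO against WT value of -1.11 turned to 1.92 with KO2 alone, and its rescue against KO value of 3.38 went to 0.35 and no longer passed (limma adjusted p = 0.38). AUTS2, a regulator of transcription named here after its values were seen, had no peak in any KO1 or Rescue1 library, 55.6% to 63.0% in KO2 and 81.5% to 96.3% in Rescue2. Between the rescue lines, 177 regions were present in Rescue1 and not Rescue2 (0.941% against 0.731% of all regions) and 613 the other way (3.26% against 2.45%). There 7 long genes were higher and 23 lower in Rescue1 (2.41% and 7.90%, against 1.72% and 2.71% of all genes). CSMD2, also named after its values were seen, was at 17% in Rescue1 and 86.4% in Rescue2.

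**Figure D5:**
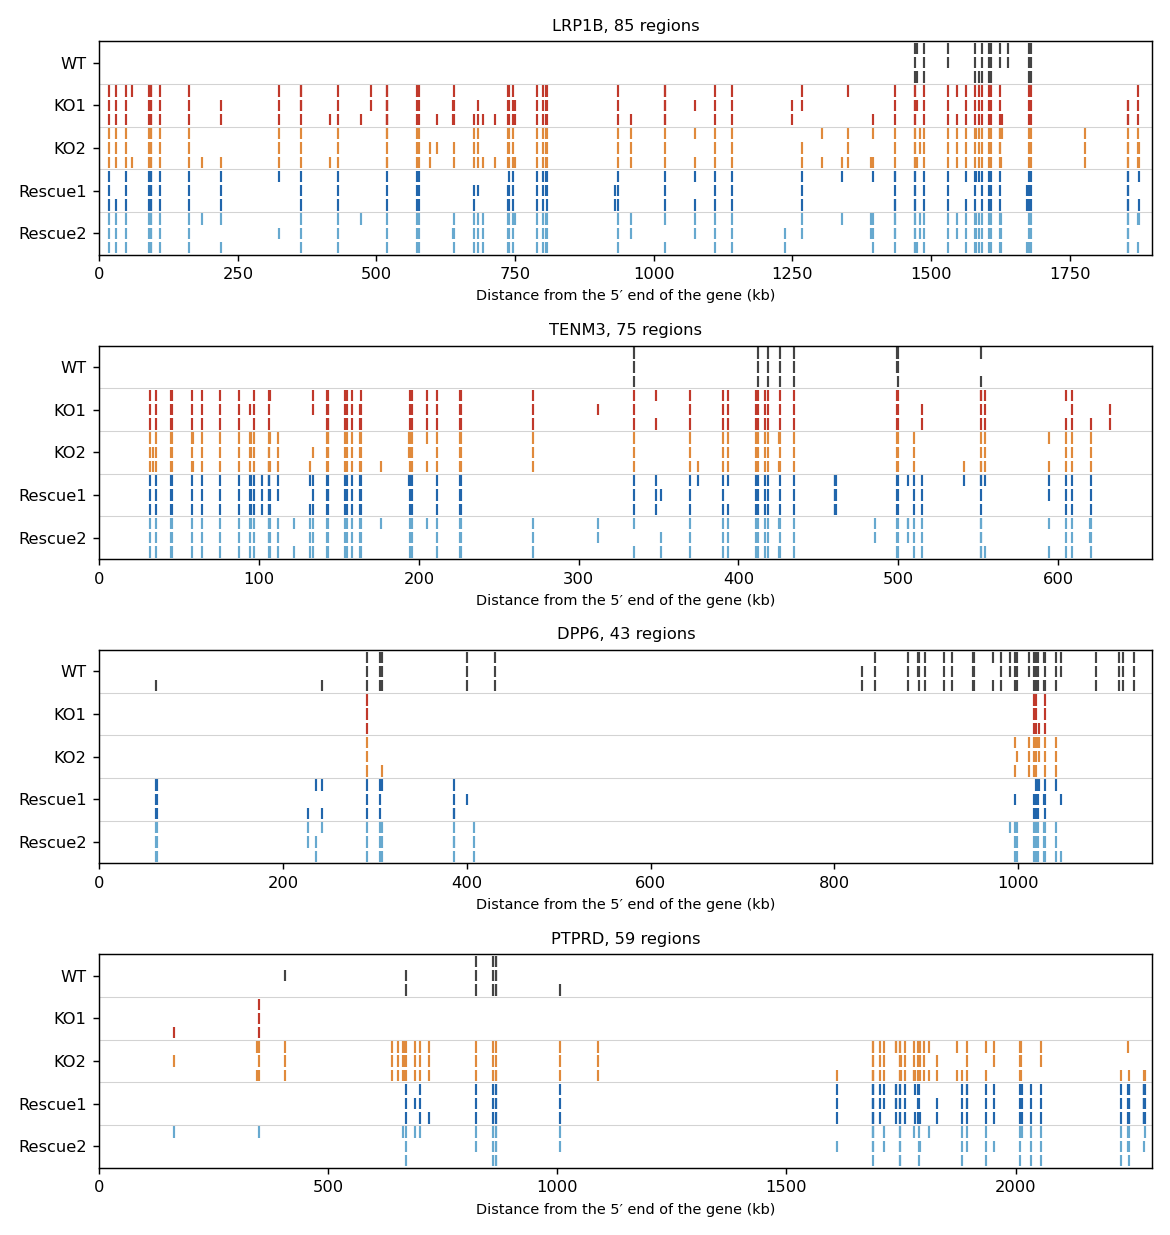
Regions with a peak in 15 libraries along LRP1B, TENM3, DPP6 and PTPRD, by distance from the 5′ end of the gene in kb, with 1 line of ticks per library (3 per group). WT peaks of LRP1B and TENM3 are few, DPP6 holds WT peaks in its 3′ part that KO1 and KO2 mostly lack, and the PTPRD regions of KO2 and Rescue1 are nearly absent from KO1.

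Called regions could form unbroken runs, in which every region of the gene from first to last had the same call. The longest run gained in KO had 7 regions over 65.0 kb in STPG2 (chr4:97367921-97432897), and runs of 6 lay in GALNTL6, LRRC4C and PRKG1. The longest lost run had 6 regions over 59.1 kb in DPP6 (chr7:154640614-154699708), and RBFOX1 had 2 lost runs of 5. In rescue against KO a gained run of 4 regions over 17.9 kb lay in TRAPPC9. Between KO1 and KO2, 12 consecutive PTPRD regions over 461 kb were present in KO2 only, and between the rescue lines 14 consecutive SYN3 regions over 74.1 kb were present in Rescue1 only.

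Over 10 equal parts of the gene from 5′ to 3′, the share of regions gained in KO lay between 5.66% and 9.11% and the share lost between 1.55% and 3.13%. Mean shares were higher in KO than in WT both in long genes with and in those without a peak at a start of their own. In the 248 genes with a start peak in all libraries, 54.0% ± 2.28 of the regions had a peak in WT, 64.0% ± 4.79 in KO and 63.0% ± 6.62 in rescue. In the 27 genes with no start peak in any library, HPSE2, LRRTM4 and CALN1 among them, the shares were 42.9% ± 2.09, 62.5% ± 5.66 and 46.9% ± 8.06. A start peak was present in all KO and no WT library for 5 long genes (CCDC178, CSMD2, LHFPL3, MYT1L and SNTG1), and in all WT and no KO library for DLGAP1, a postsynaptic scaffold. The share of all genes with such starts is not given here, so these counts are no result about long genes in particular.

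Only 1.76% of the long-gene regions overlapped an exon, compared with 7.49% in shorter genes. Regions gained in KO were wider than lost ones (median 298 against 190.5 bp). A width is that of the merged peaks, which come from at least 6 libraries in gained regions and 3 in lost ones. The widths therefore depend on the calls. Within 200 bp around the summit, the AP-1 motif was found in 43.5% of the long-gene regions gained and 17.8% of those lost, against 34.2% of all long-gene regions and 29.9% of all regions. Long-gene regions with a peak in all 15 libraries held it in 42.4%, so the share in gained regions is not particular to them. The E-box CACCTG was found in 7.25% of those gained and 23.3% of those lost (13.2% of all long-gene regions, 15.8% of all regions). TEAD matches were found in 13.1% and 23.3% (16.7% and 15.7%), and the homeobox letters TAATTA in 4.78% and 8.81% (4.72% and 3.64%). Regions lost in rescue resembled neither extreme for AP-1, at 32.6%, while those gained in rescue held it in 42.3% and CACCTG in 27.5%. These shares are descriptions of sets chosen by their calls.

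The 500 kb limit is arbitrary. Just inside it, ANO5 (501 kb) was at 27.0% in WT, 69.0% in KO and 27.0% in rescue, SPOCK3 (501 kb), a proteoglycan gene, at 4.76%, 76.2% and 57.1%, and KCNAB1 (501 kb) at 54.8%, 67.5% and 63.4%. Just outside it, CACNA2D1 (498 kb), a calcium channel subunit gene, was at 17.2%, 73.6% and 71.3%, ITPR2 (498 kb) at 68.6%, 68.9% and 67.6%, and DIAPH3 (498 kb) at 54.6%, 50.4% and 66.7%.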

How the data were processed

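ATAC-seq was done on 15 RPTEC libraries. Per the labels, the authors' processing notes name BWA 0.7.17, MACS2 2.2.7.1 and hg38, and peaks were called per library without pooling. Each deposited list holds intervals, a score, fold enrichment as a ratio, −log10 p, −log10 q and the summit. These values refer to the background of their own library, so only intervals, −log10 q (filters), fold rank and summit were used. The lists hold no read counts, so the depth per library is not known from them and precision rests on the number of libraries. DiffBind 2.14.0, also named, was not used, since it needs reads.

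Peaks sharing 1 bp were merged, and regions with a peak in at least 2 libraries were annotated with GENCODE 44. Groups came from sample titles. The comparisons of the study were kept, KO against WT and rescue against KO. Library shares were compared by exact two-sided permutation tests (smaller tail doubled), and genes by limma 3.58.1 on log2((regions with a peak + 0.5)/(regions without + 0.5)), centred on the median gene of each library, with at least 10 regions and Benjamini-Hochberg adjustment over all genes. Libraries of a line are not said to come from separate cultures, so p-values measure the spread between these samples, which may be technical. All permutation tests exchange libraries and not lines, so they describe these lines and not SETD2 knockouts or rescues in general. The limma step was tested on simulated data. Same-numbered libraries did not deviate together (correlations -0.0629 to 0.0511), so replicate numbers were not used as pairs. The gene lists, the members and the rules were chosen with earlier results of these data known.

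Genes were named by rule. These were the 6 with the most called regions in each direction of both comparisons, the first 3 for each clone against WT, the 4 with the largest gene-level differences, the richest and poorest in regions, and those next to the 500 kb limit. KAZN, AUTS2, CSMD2 and the genes of runs and start peaks were named after their values were seen, and results for some genes and regions that the rule selects are not reported here. Alternatives were stricter peaks (−log10 q of 5), 150000 peaks per library, at least 0.5 of a region under peaks, 5 kb from starts, a majority rule, single clones, genes of 1 Mb, 30 regions per gene, no centring, a replicate block and leaving out each library.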

Additional observations from a re-analysis of the deposited data

Results flagged for a closer look

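In KO2 replicate 3 the share of long-gene regions with a peak (72.4%) lay far above the other 5 KO libraries, as did its shares in DLG2 (90.2%), TRAPPC9 (35.3%) and NCKAP5 (70.9%). Of 46 groups of 6 libraries examined, 4 stood out in this way, all through this library, and chance alone gives about 1 in 20. Its list was the longest of the KO lists (246615 peaks on chromosomes 1 to 22), and the part of list length in these shares was not tested. The rise was not particular to long genes. This library was also the highest KO library in regions of shorter genes (73.7%) and in those between genes or near starts (75.2%). Its gap to shorter genes, -1.23 points, was near those of the other KO2 libraries (-1.64 and -1.48).

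Some of the genes with the most calls differed between clones of the same genotype by limma's test. CNTN5 was higher in KO1 than in KO2 by 1.32 log2 odds and higher in Rescue1 than in Rescue2 by 1.74. EYS, NKAIN3 and RYR2 were higher in KO1 than in KO2 by 0.87, 2.19 and 1.08. For RBFOX1 the difference Rescue1 minus Rescue2 was -2.16, and for SHANK2 it was -1.08.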

How the results depend on the processing

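The gap between long-gene and shorter-gene regions kept its direction in every setting tried. KO minus WT was 7.48 points with KO1 alone and 5.91 with KO2 alone (exact p = 0.1, the smallest possible), and leaving out each library gave 6.41 to 6.89, where p = 0.0714 without a WT library is the smallest possible. Rescue minus KO was -5.55 to -4.79 without each library. Against regions between genes or near starts, an alternative chosen after seeing the data like the GC weighting, the differences were 5.76 and -2.76, and with GC weighting 6.13 and -4.29.

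The share of long-gene regions with a peak, KO minus WT, was 6.58 points with 150000 peaks, 8.69 with KO1 alone, 13.9 with KO2 alone (exact p = 0.1) and 9.52 to 12.5 without each library. Rescue minus KO was -3.11 points with 150000 peaks, -5.89 with Rescue1 alone and -7.60 in genes of 1 Mb or more, all past 0.05, turned to 0.605 with KO1 alone and 1.92 with Rescue2 alone, and ran from -4.24 to -0.227 without each library, and the cause was not tested. Regions gained in KO1 gave -29.6 to -25.1 points, rescue minus KO2, without each library. Regions lost in KO1 gave 12.6 points with stricter peaks, 14.2 with 150000 peaks and 13.4 with 0.5 of the region under peaks, all past 0.05, and 9.72 to 16.4 without each library.

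Counts of called regions moved with the settings. Shares of all regions are not set beside them here, though those of KO1 and KO2 against WT are given above. The counts show how the calls moved and are no result about long genes in particular. Regions gained in KO numbered 917 with 150000 peaks, 2231 with KO2 alone, 3287 by majority and 1401 to 1577 without each library. Regions lost numbered 879 with KO1 alone, 1795 by majority and 468 to 666. Rescue gained 544 over KO1 alone, 344 with Rescue1 alone, 481 with Rescue2 alone, 1314 by majority and 188 to 244 without each library. Rescue lost 825 against KO1 alone, 639 against KO2 alone, 734 with Rescue1 alone, 1720 by majority and 372 to 453.

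Long genes lower in KO numbered 52 with 150000 peaks and 10 without centring, and without each library 25 to 34 were lower and 102 to 116 higher. Shares of all genes under these settings are not given, so such counts show only how the calls moved. Centring removed a shift of the median gene of 0.29 (KO minus WT) and 0.17 (rescue minus KO) log2 odds. In rescue, 30 long genes were higher against KO2 alone and 72 lower without centring, and 42 to 50 were higher and 114 to 123 lower without each library. Among 1484 recomputed values of named genes, 6 changed sign: with KO2 alone CSMD3 (-0.48), ROBO2 (-2.40) and SYN3 (1.92) against WT and NELL1 in rescue (-1.34), and with Rescue2 alone RBFOX1 (0.0944) and SNTG1 (0.51) against KO.

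With the replicate block, KO minus WT was 6.70 points for the gap and 11.3 for the share of long-gene regions (exact p = 0.0741 for both, the smallest possible), and rescue minus KO was -5.16 (p = 0.00926, exact) and -1.99. In limma with the block 110 long genes were higher and 30 lower in KO, and 46 and 118 in rescue. No same-numbered pair of libraries had a correlation over 0.1. Depth could not be weighed, since the lists hold no read counts.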
